A study of Homo sapiens with 6 samples.

Results

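Cadherins, catenins and protocadherins are described here in HCT116 cells, a human colorectal carcinoma line, with and without the histone demethylase LSD1. The 10 genes, of 60240 in the count table, were listed by name: the cadherins CDH1, CDH2, CDH3 and CDH17, the catenins CTNNA1, CTNNB1 and CTNND1, and the protocadherins PCDH1, PCDH7 and PCDH9. The list was composed with the LSD1 KO against WT values of these libraries in view, so that those values are given as a description and not as a test of the genes. Of the 10 genes, 8 had enough counts to enter the comparison, whereas CDH2 and CDH17 did not. PCDH7 stood apart: its mean in LSD1 KO libraries was 33.2% of the WT mean, while the means of the other 7 genes compared lay between 79.2% and 104.7% of WT.

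Classical cadherins are transmembrane proteins that join neighbouring cells through calcium-dependent binding of their extracellular domains. Inside the cell, their tails bind p120-catenin (CTNND1) and β-catenin (CTNNB1), and β-catenin binds α-catenin (CTNNA1), which links the junction to actin. β-catenin is also the transcriptional effector of the Wnt pathway, and protocadherins are relatives of the cadherins whose cytoplasmic tails lack the catenin binding region. In the intestinal epithelium, E-cadherin (CDH1) is the main cadherin of the adherens junction, while loss of CDH1 together with gain of N-cadherin (CDH2) is a classical sign of epithelial-mesenchymal transition.

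RNA-seq was performed on 3 libraries of wild-type HCT116 cells (WT) and 3 libraries of HCT116 cells in which LSD1 had been disrupted with CRISPR/Cas9 (LSD1 KO). Both groups were the same line in the same medium, and the comparison had no drug arm or time course. The knockout was made with a guide against exon 1 of LSD1 in a transiently transfected plasmid, followed by puromycin selection and the growth of individual clones. No such steps are described for the WT cells, so effects of LSD1 loss, of selection and of cloning cannot be told apart here. How many clones the 3 LSD1 KO libraries came from is not given, and the libraries are described only by the study's general statement that experiments had biological replicates. Whether the libraries of a group came from separate cultures or clones is not given for this experiment, so p-values measure the spread between these libraries.

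KDM1A, the gene of LSD1, fell from 223.1 ± 8.78 CPM in WT to 28.4 ± 1.30 CPM in LSD1 KO libraries (SD, n = 3 each), a log2 fold change of -2.97 ± 0.15 (SE, edgeR q = 0.00045). CPM stands for counts scaled to a common library size with TMM factors, in the usual unit. The libraries held 25379279 to 29186963 counts each, so that 3 counts, the floor used here, were worth 0.0994 to 0.114 CPM, which covers counting error only. The epithelial keratins KRT8, KRT18 and KRT19 were abundant in every library and the intestinal factor CDX2 had 322 to 554 counts. Of the 12 colon epithelial markers listed, 6 had 3 counts or fewer in at least 1 library, namely CDX1, KRT20, VIL1, LGALS4, CEACAM5 and CDH17. Of these, CDX1 had no counts in any library, while KRT20 reached 16. The summed level of 9 fibroblast markers was 21.5 to 24.8 CPM in WT and 31.7 to 35.5 CPM in LSD1 KO libraries, almost all of it from COL1A1, while COL1A2, COL3A1, DCN, LUM, PDGFRA and FAP never exceeded 3 counts. The 5 endothelial markers found summed to at most 2.42 CPM and the 6 leukocyte markers to at most 2.39 CPM.

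Replicate 2 of both groups stood apart from replicates 1 and 3 in a way that followed transcript length. Across 17553 genes with a known length, the log2 level of replicate 2 relative to replicates 1 and 3 had a Spearman correlation of -0.40 in WT and -0.232 in LSD1 KO with the length of the longest transcript. Genes are not independent replicates, and these values are a description. Genes with a transcript of at least 7000 bases had a median deviation of -0.41 in WT replicate 2 and -0.29 in LSD1 KO replicate 2. The long transcripts of the list did not all share this: relative to replicates 1 and 3, replicate 2 was at -0.39 in WT and -0.59 in LSD1 KO for CTNND1, at -0.40 and 0.79 for PCDH7, and at 0.59 and 0.82 for PCDH9. Same-numbered libraries of both genotypes deviated together, so values from a model with the replicate number as a block are also given where they change a call.

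CDH1 encodes E-cadherin and lies on chromosome 16, from 68737292 to 68835537 on the plus strand of GRCh38.p14. It had 28.5, 34.2 and 45.5 CPM in WT replicates 1 to 3 and 23.6, 24.5 and 37.6 CPM in LSD1 KO replicates 1 to 3. The groups overlapped, but LSD1 KO was below WT within each replicate number, by log2 differences of -0.27, -0.48 and -0.27. Its log2 fold change was -0.34 ± 0.25 (SE) without the replicate block and -0.34 ± 0.10 with it, and in neither model did CDH1 reach a q value under 0.1 (edgeR q = 0.999 and q = 0.196).

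CDH3, which encodes P-cadherin, lies just upstream of CDH1 on the same strand, from 68645310 to 68733771. Its levels were 114.4, 147.2 and 148.9 CPM in WT and 109.7, 139.1 and 122.5 CPM in LSD1 KO libraries. The groups overlapped over most of their ranges. A log2 fold change of -0.14 ± 0.18 (SE) was found, and the differences within replicate numbers were -0.06, -0.08 and -0.28.

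N-cadherin and the liver-intestine cadherin CDH17 were barely detected. For CDH2 the counts were 0, 1 and 6 in the WT libraries and 0, 4 and 1 in the knockout. For CDH17 they were 1, 2 and 4 in the WT libraries and 2, 4 and 6 in the knockout. Both were at or near the floor of 3 counts in both genotypes, so no fold change is given, and a difference between the genotypes was not detectable at this depth.

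Per base of transcript, CDH3 made up most of the summed level of the 4 cadherins listed. Other cadherins, such as CDH24, are not part of this sum. With levels divided by the length of the longest transcript (CPM per kb), CDH3 made up 81.2%, 82.2% and 77.8% of the summed level of the 4 cadherins in WT and 83.4%, 85.8% and 77.7% in LSD1 KO libraries. CDH1 made up between 13.97% and 22.1% of it in the 6 libraries. The ratio of CDH3 to CDH1 was 4.18 ± 0.573 in WT and 4.90 ± 1.32 in LSD1 KO libraries (SD, n = 3 each). Replicates 1 to 3 had 4.34, 4.65 and 3.54 in WT and 5.03, 6.15 and 3.52 in LSD1 KO libraries, so the groups overlapped.

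**Figure D1:**
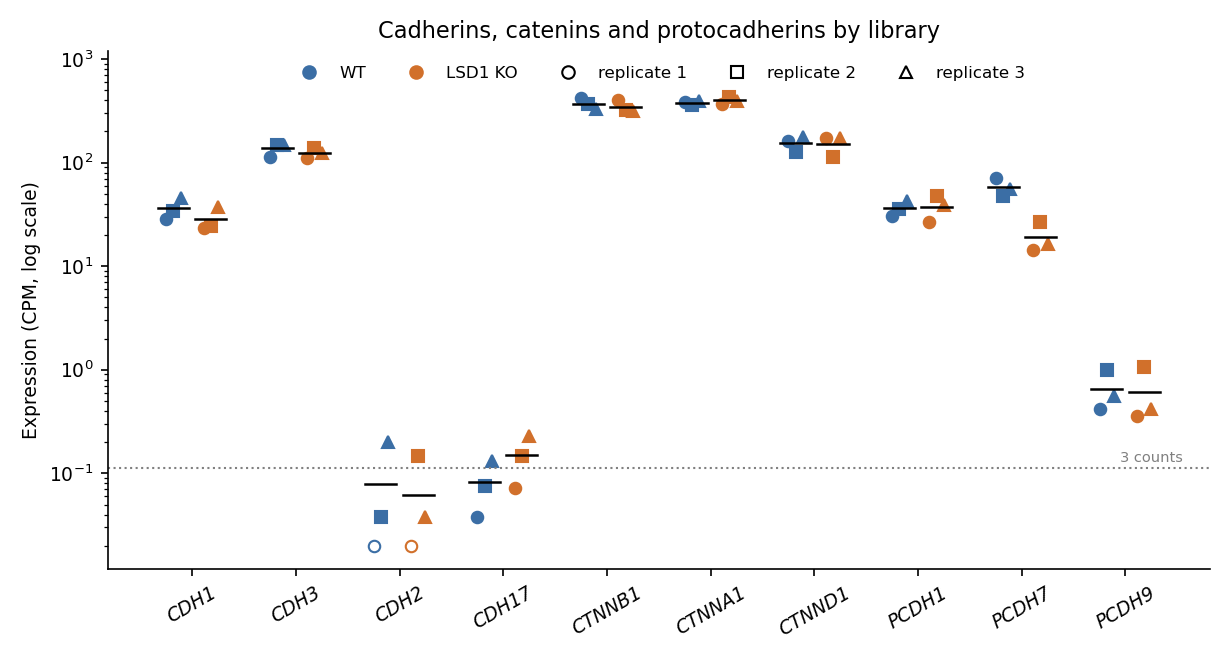
Expression of the 10 genes in each of the 6 libraries, in CPM on a log axis, with WT in blue, LSD1 KO in orange, one marker shape per replicate number and the group mean as a black line (open symbols at the bottom stand for 0 counts and the dotted line for 3 counts). PCDH7 is the gene whose 3 LSD1 KO libraries, at 14.2 to 26.7 CPM, all sit below the 3 WT libraries, at 47.1 to 70.2 CPM.

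Among the catenins, CTNNB1 (chromosome 3, 41199505 to 41240443, plus strand) had 415.4, 370.4 and 328.5 CPM in WT and 398.6, 323.9 and 317.7 CPM in LSD1 KO libraries. The order of the replicates was the same in both genotypes, and LSD1 KO was slightly below WT within each replicate number, by -0.06, -0.19 and -0.05 on the log2 scale. The log2 fold change was -0.10 ± 0.18 (SE).

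CTNNA1, the α-catenin gene (chromosome 5, 138753425 to 138935034, plus strand), had 387.5, 361.5 and 390.5 CPM in WT and 370.1, 429.8 and 393.0 CPM in LSD1 KO libraries. Its log2 fold change was 0.07 ± 0.16 (SE), and the replicates did not share a direction. The ratio of CTNNB1 to CTNNA1 per transcript length was 0.768 ± 0.0955 in WT and 0.689 ± 0.136 in LSD1 KO libraries (SD, n = 3 each), a difference within the spread.

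CTNND1, the p120-catenin gene (chromosome 11, 57761802 to 57819540, plus strand), had 159.9, 127.5 and 175.0 CPM in WT and 171.9, 113.4 and 171.0 CPM in LSD1 KO libraries. Replicate 2 was the lowest of its group in both genotypes, and CTNND1 has a longest transcript of 7540 bases. On average the genotypes differed by a log2 fold change of -0.02 ± 0.21 (SE).

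The count of CTNND1 depends on how reads were divided between gene models. Of all stretches of 31 bases in its transcripts, 40.8% also occurred in another gene, and 37.7% occurred in ENSG00000288534, a separate entry of the count table. The counts of ENSG00000288534 were 2062, 150 and 396 in the WT libraries and 1413, 204 and 449 in the knockout, so it varied more between replicate numbers than between genotypes. Summing both entries, an alternative chosen after seeing the data, gave 186.4 ± 52.3 CPM in WT and 177.1 ± 51.6 CPM in LSD1 KO libraries (SD, n = 3 each) and a log2 fold change of -0.07 ± 0.28 (SE).

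PCDH7 encodes a non-clustered protocadherin of the δ1 group and lies on chromosome 4, from 30720369 to 31146800 on the plus strand. Its counts in replicates 1 to 3 were 1858, 1243 and 1669 for WT cells and 398, 726 and 432 for LSD1 KO cells. Scaled to library size these were 70.2, 47.1 and 55.3 CPM in WT and 14.2, 26.7 and 16.4 CPM in LSD1 KO libraries. The groups did not overlap: the highest LSD1 KO library and the lowest WT library were both replicate 2, and the former was still well below the latter.

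The mean level of PCDH7 was 57.5 ± 11.7 CPM in WT and 19.1 ± 6.70 CPM in LSD1 KO libraries (SD, n = 3 each). This was a log2 fold change of -1.59 ± 0.27 (SE), and within replicate numbers 1, 2 and 3 the log2 differences were -2.30, -0.81 and -1.76. Across all genes tested, edgeR gave PCDH7 a q value of 0.396 without the replicate block and of 0.0276 with it, at a log2 fold change of -1.62 ± 0.24, and DESeq2 without the block gave a q value of 7.8e-05. These q values come from the contrast with which PCDH7 was chosen and are printed to place it in the table. LSD1 KO replicate 2 was the knockout library in which PCDH7 was highest. Without it, the log2 fold change was -1.93 and PCDH7 was called without the block. Leaving out the highest knockout library could only widen the difference, and PCDH7 was not called when any other library was left out. As in any bulk RNA, fewer cells with PCDH7 RNA and less PCDH7 RNA per cell cannot be told apart.

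PCDH7 ranked number 13 of 17672 genes by p without the block and number 85 with it. These ranks and the counts that follow come from the contrast with which PCDH7 was chosen, so nothing is read from them. In the model without the block, 45 genes, PCDH7 included, had a log2 fold change at or below that of PCDH7. Only 3 of them had a mean level at or above that of PCDH7, namely KDM1A, TMEM200A and PCDH7 itself, of which TMEM200A is named after its values were seen.

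PCDH1 and PCDH9 are the other protocadherins listed. PCDH1 (chromosome 5, 141853090 to 141878410, minus strand), a protocadherin of epithelial cells, had 30.6, 35.96 and 42.4 CPM in WT and 26.8, 47.0 and 38.6 CPM in LSD1 KO libraries. Its groups overlapped throughout, with a log2 fold change of 0.04 ± 0.23 (SE). PCDH9 (chromosome 13, 66302834 to 67230336, minus strand) was counted 11, 26 and 17 times in the WT libraries and 10, 29 and 11 times in the knockout, and its log2 fold change was -0.09 ± 0.58 (SE).

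PCDH1 was near its WT level in the knockout, and the balance of PCDH1 and PCDH7 was different between the genotypes. Per transcript length, PCDH7 made up 55.5%, 41.6% and 41.5% of the summed level of the 3 protocadherins in WT and 22.5%, 23.6% and 18.8% in LSD1 KO libraries. The ratio of PCDH1 to PCDH7 was 0.799, 1.399 and 1.404 in WT and 3.45, 3.22 and 4.32 in LSD1 KO libraries, without overlap between the groups. Both quantities contain the PCDH7 values by which the gene was noticed.

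The promoter windows of PCDH7 and PCDH1 are shown because these protocadherins had similar WT levels per transcript length and different fold changes. Each window runs from 250 bases before to 50 bases after an annotated start in RefSeq on GRCh38.p14, in the direction of transcription, and capitals mark CpG dinucleotides. The first is chr4:30720119-30720418 on the plus strand, and the second is chr5:141869578-141869877 on the minus strand, at a start inside the span of the gene.
PCDH7: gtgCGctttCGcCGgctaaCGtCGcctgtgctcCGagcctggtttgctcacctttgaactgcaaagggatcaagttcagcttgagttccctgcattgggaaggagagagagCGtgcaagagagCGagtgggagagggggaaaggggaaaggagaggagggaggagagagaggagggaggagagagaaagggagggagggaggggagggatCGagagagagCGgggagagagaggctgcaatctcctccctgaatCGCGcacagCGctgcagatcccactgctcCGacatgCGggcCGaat
PCDH1: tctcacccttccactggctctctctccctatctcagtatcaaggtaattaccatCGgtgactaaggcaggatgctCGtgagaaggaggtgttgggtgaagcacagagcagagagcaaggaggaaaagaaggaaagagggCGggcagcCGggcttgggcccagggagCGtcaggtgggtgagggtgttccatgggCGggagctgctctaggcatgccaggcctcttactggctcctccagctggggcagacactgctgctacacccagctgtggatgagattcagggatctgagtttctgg

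The PCDH7 window had 16 CpG dinucleotides, a GC content of 60.3% and an observed to expected CpG ratio of 0.667. The PCDH1 window had 6 CpG dinucleotides, a GC content of 58.0% and a ratio of 0.246. Over all 35116 promoter windows of the table, the median GC content was 58.7% and the median ratio 0.579. The E-box CACCTG, the sequence bound by ZEB and SNAI factors, was searched on both strands and occurred once in the PCDH1 window, not in the PCDH7 window, and in 20.6% of all windows. Neither window held AACCNGGTT, the GRHL motif, found in 0.239% of all windows, nor CCGTTA, the core OVOL motif, found in 3.07%. The E-box match in PCDH1 overlapped no other motif searched. These are letter matches only, and no measurement of chromatin or methylation was used here. Which start of each gene these cells use was not examined, and the start shown for PCDH1 lies inside the gene span.

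**Figure D2:**
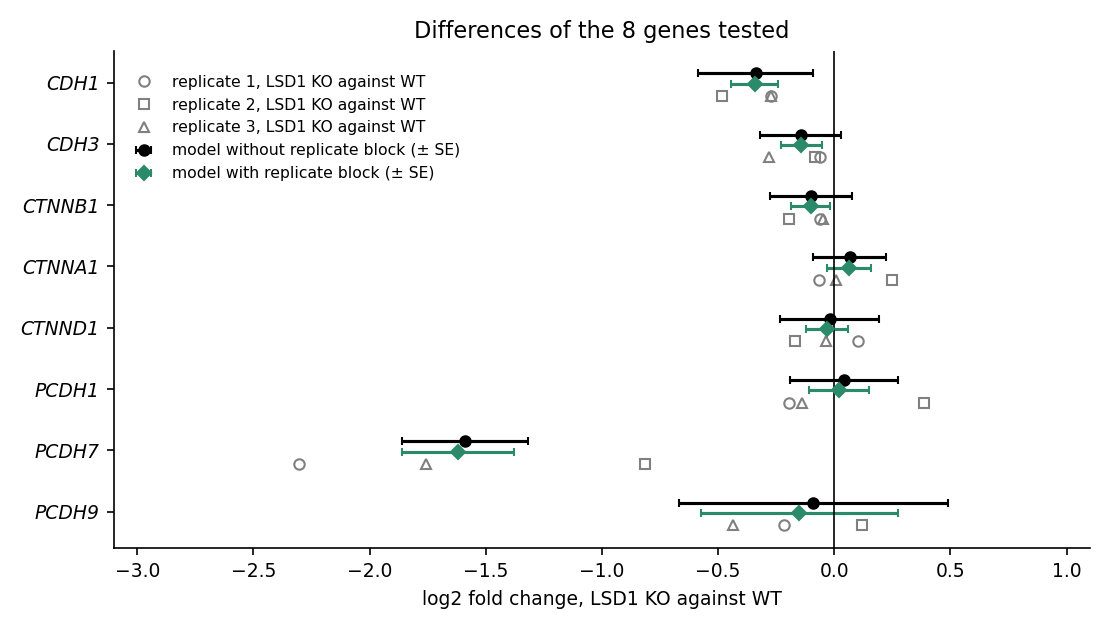
Log2 fold changes of LSD1 KO against WT for the 8 genes compared, from the edgeR model without the replicate block (black circles) and with it (green diamonds), each with its SE, and the differences within each replicate number as open symbols. PCDH7 lies at -1.59 and -1.62 with all 3 replicate numbers at or below -0.81, while the other 7 genes lie between -0.34 and 0.07 in both models.

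Over the list, 0 of the 8 genes compared were called at a q value under 0.1 without the replicate block, where 0.00566% of all genes tested were called, and PCDH7 was the 1 gene called with it, where 1.6% were. At an unadjusted p under 0.05 without the block the count was again PCDH7 alone, against 3.12% of all genes, or 1.23% of them with lower levels in the knockout. DESeq2 called PCDH7 and no other gene of the list, against 0.37% of the genes it tested. The groups did not overlap for PCDH7 alone, against 3.51% of all genes with every LSD1 KO library below every WT library, 4.23% with every one above and 7.74% in either direction. LSD1 KO was below WT in each of the 3 replicate pairs for CDH1, CDH3, CTNNB1 and PCDH7, against 17.5% of all genes. Since the list was chosen with this contrast known, nothing is read from these counts. The median log2 fold change of the 8 genes was -0.09, and that of all genes tested was 0.00082.

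The order of the 10 genes by level was fixed by their length-scaled values, and the difference between the genotypes played little part in it outside PCDH7. CTNNA1 was highest at a mean of 101.5 CPM per kb over the 6 libraries, with a range of 94.4 to 112.2. CTNNB1 followed at 73.5, with a range of 65.0 to 85.0, then CDH3 at 29.3, with a range of 24.6 to 33.5, and CTNND1 at 20.3, with a range of 15.04 to 23.2. The ranges of these neighbours did not overlap.

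PCDH1 at 7.67, CDH1 at 6.71 and PCDH7 at 4.35 CPM per kb formed a middle group. Their neighbouring ranges over the 6 libraries overlapped, so their order over both genotypes together was not resolved. Within the group, PCDH7 was 5.34 to 7.96 in WT and 1.61 to 3.03 in LSD1 KO libraries. In WT, its mean of 6.52 ± 1.33 lay within the spread of CDH1, at 7.49 ± 1.80. In LSD1 KO libraries the PCDH7 mean was 2.17 ± 0.760 against 5.93 ± 1.63 for CDH1 (SD, n = 3 each). Every LSD1 KO library of PCDH7 was below the lowest LSD1 KO library of CDH1, at 4.90, and of PCDH1, at 5.56. The median over all genes tested was 4.59 CPM per kb. CDH17, PCDH9 and CDH2 were lowest, at 0.0314, 0.0225 and 0.0175 CPM per kb, with overlapping ranges on this scale.

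The order depended on the length used. With the longest coding sequence in place of the longest transcript, an alternative chosen after seeing the data, CTNNB1 at 152.9 was above CTNNA1 at 143.0 and CTNND1 at 52.7 was level with CDH3 at 52.4 CPM per kb. In the middle group CDH1 at 12.2 came before PCDH7 at 10.06 and PCDH1 at 9.94. PCDH9, whose longest transcript has 28227 bases, was at 0.171 with a range of 0.0964 to 0.288, above the highest library of CDH17, at 0.091, and of CDH2, at 0.0731. CDH3 still made up 77.5% to 85.7% of the summed level of the 4 cadherins listed.

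**Figure D3:**
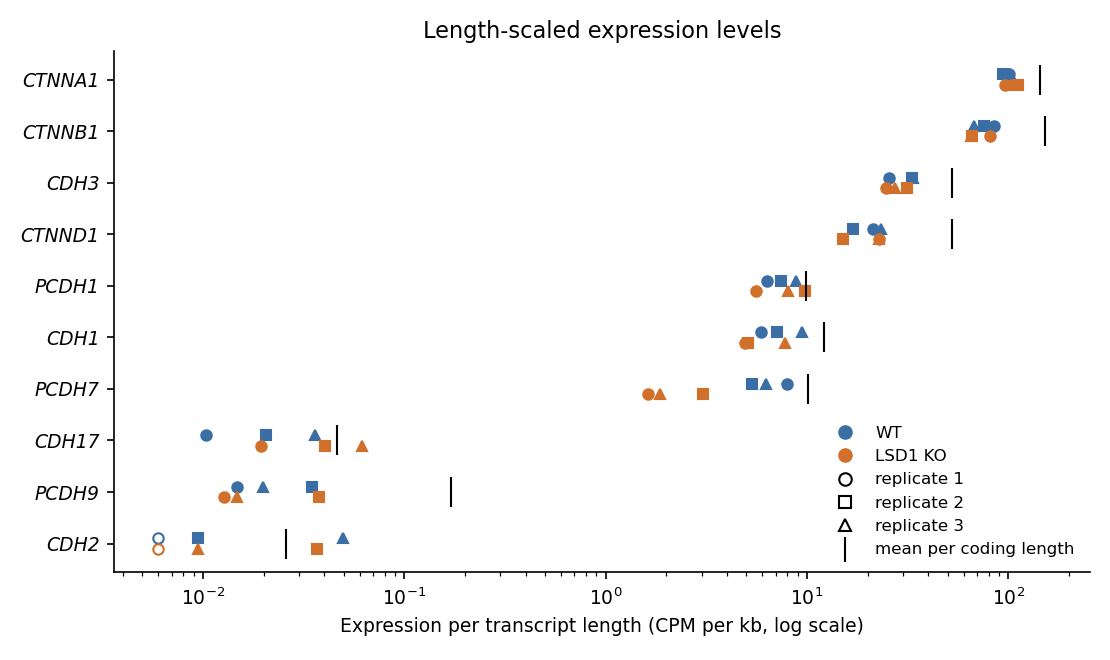
Level of each gene in each library per kb of its longest transcript, in CPM per kb on a log axis, with WT in blue and LSD1 KO in orange, one marker shape per replicate number, open symbols for 0 counts and a black bar for the mean over 6 libraries per kb of coding sequence. The catenins and CDH3 sit above 15 CPM per kb in every library, PCDH1, CDH1 and PCDH7 between 1.61 and 9.77, and CDH17, PCDH9 and CDH2 below 0.1.

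Shared sequence touched the other genes less than CTNND1. The share of 31-base stretches found in another gene was 12.2% for PCDH7, 12.0% for CDH3, 7.99% for CTNNA1, 7.92% for CDH1 and 0.0881% for CTNNB1, and 0% for PCDH1. For PCDH7 nearly all of it, 12.0%, was shared with ENSG00000286596. This separate entry had 9, 5 and 5 counts in the WT libraries and 0, 2 and 0 in the knockout. For CDH3 it was mainly CDH3-AS1, at 7.49%, with 2 to 22 counts per library. The stretches were matched on either strand, and CDH3-AS1 lies on the strand opposite to CDH3. Whether counting used the strand is not given, so reads of a gene and of its partner may not have been told apart. The partners had few counts beside the 398 to 1858 of PCDH7 and the 3027 to 4495 of CDH3.

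The remaining cadherin superfamily was examined in the same models with lists chosen by function. For every list below, the share of all genes called was 0.00566% without the block and 1.6% with it. Of 19 further cadherins, 5 were compared and none was called in either model. CDH24 was the highest of them, at 37.8 ± 0.620 CPM in WT and 30.2 ± 4.92 CPM in LSD1 KO libraries (SD, n = 3 each), a log2 fold change of -0.32 ± 0.17 (SE). CDH22 was next at 5.29 CPM in WT and 5.27 CPM in LSD1 KO libraries, and CDH4, CDH8 and CDH15 had log2 fold changes of -0.37, 0.21 and 0.09 with the block.

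Of 9 further non-clustered protocadherins, the relatives of PCDH7, only PCDH12, PCDH19 and PCDH11X had enough counts. For PCDH19 the counts were 21, 18 and 51 in the WT libraries and 4, 8 and 27 in the knockout. Its groups overlapped because replicate 3 was highest in both, and its log2 fold change was -1.12 ± 0.71 (SE) without the block and -1.30 ± 0.47 with it (edgeR q = 0.282). PCDH12 had 2.13 CPM in WT and 2.39 CPM in LSD1 KO libraries. Of 53 clustered protocadherins, 11 were compared and none was called. The highest, PCDHAC2, had 11.7 ± 2.04 CPM in WT and 10.4 ± 1.97 CPM in LSD1 KO libraries (SD, n = 3 each), and PCDHGA10 had 8.95 and 9.78 CPM. The groups did not overlap for 2 of the 11 genes, where 7.74% of all genes did not and 4.23% had every LSD1 KO library above WT. Both are among the lower ones. PCDHGA9 had 19, 0 and 8 counts in the WT libraries and 53, 21 and 22 in the knockout. PCDHGB7 had 22, 15 and 22 against 58, 24 and 38 counts. PCDHAC1 had 26, 33 and 115 counts in the WT libraries and 21, 10 and 41 in the knockout, with a log2 fold change of -1.18 ± 0.67 (SE). These 3 genes, named after their values were seen, had edgeR q values of 0.222, 0.278 and 0.226 with the block. Exons shared within the protocadherin clusters make the counts of single members uncertain.

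Among 13 compared genes of the FAT, Dachsous, CELSR, CDHR and calsyntenin families, none was called without the block and FAT1 alone was called with it. Of all genes tested, 0.00566% were called without the block and 1.6% with it. Nothing is read from this count, because the list was chosen with results known. FAT1, a giant atypical cadherin, had the highest counts of any gene in these lists, at 1794.6, 731.7 and 1743.0 CPM in WT and 2163.9, 1060.1 and 2509.9 CPM in LSD1 KO libraries. Replicate 2 was far below replicates 1 and 3 in both genotypes and the groups overlapped, but LSD1 KO was above WT within each replicate number, by 0.27, 0.53 and 0.53 on the log2 scale. FAT1 had a log2 fold change of 0.43 ± 0.40 (SE, edgeR q = 0.999) without the block and 0.44 ± 0.09 (q = 0.0847) with it. CLSTN1 had 212.2 CPM in WT and 221.1 CPM in LSD1 KO libraries.

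Of 18 catenin relatives and junction partners, 14 were compared and 0 were called in either model, with a median log2 fold change of 0.09. JUP, which encodes γ-catenin, had 284.0 ± 68.3 CPM in WT and 264.6 ± 48.2 CPM in LSD1 KO libraries, and VCL, the vinculin gene, had 205.8 ± 47.4 and 239.5 ± 22.9 CPM (SD, n = 3 each). The groups did not overlap for 4 of the 14 genes, where 7.74% of all genes did not. NECTIN3 (58.6 and 40.1 CPM) and AJUBA (39.2 and 36.1 CPM) were lower, and LIMA1 (79.9 and 101.5 CPM) and CTNNAL1 (108.2 and 129.1 CPM) were higher in LSD1 KO than in WT libraries. They are named after their values were seen, and the smallest q value of the list with the block was 0.141, for NECTIN3.

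Of 13 genes of cadherin cleavage and turnover, 12 were compared and 0 were called in either model. Among them RAB11A, a recycling GTPase, had a log2 fold change of -0.10 ± 0.15 (SE) and ADAM10, the sheddase of E-cadherin, of 0.14 ± 0.15. The β-catenin destruction complex and its ubiquitin ligase gave 0 calls among 10 genes in either model, with a median of -0.01. Its highest genes, CSNK1A1 and SKP1, had log2 fold changes of 0.10 ± 0.17 and 0.04 ± 0.22 (SE).

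Of the transcription factors known to act on CDH1, 7 repressors and 6 activators were compared, and none was called without the block. With it, 1 repressor and 2 activators were called, where 1.6% of all genes were, and nothing is read from these counts because the lists were chosen with results known. ZEB1, a repressor of CDH1, had 10.7, 8.25 and 9.94 CPM in WT and 17.9, 34.7 and 20.2 CPM in LSD1 KO libraries. The groups did not overlap, with a log2 fold change of 1.33 ± 0.27 (SE, edgeR q = 0.464) without the block and 1.28 ± 0.23 (q = 0.0561) with it. TCF3, the most abundant repressor of the list, had 208.2 CPM in WT and 182.4 CPM in LSD1 KO libraries and was not called. Of the 7 repressors compared, 4 had a positive and 3 a negative log2 fold change without the block. TWIST1 was another repressor, named after its values were seen. It had 29, 62 and 65 counts in the WT libraries and 4, 40 and 8 in the knockout. Its groups overlapped, LSD1 KO was below WT within each replicate number, and its log2 fold change was -1.54 ± 0.75 (SE) without the block and -1.88 ± 0.51 with it (edgeR q = 0.17).

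GRHL2, an activator of CDH1, had 7.52, 5.60 and 8.58 CPM in WT and 0.536, 1.73 and 1.14 CPM in LSD1 KO libraries. Its LSD1 KO libraries were all below WT, with a log2 fold change of -2.67 ± 0.43 (SE, edgeR q = 0.391) without the block and -2.72 ± 0.37 (q = 0.0214) with it. OVOL2, a repressor of ZEB1, moved the other way, from 0.680, 2.04 and 0.928 CPM in WT to 3.08, 6.34 and 3.14 CPM in LSD1 KO libraries. Its log2 fold change was 1.78 ± 0.50 (SE, edgeR q = 0.934) without the block and 1.83 ± 0.25 (q = 0.0216) with it.

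ELF3, an epithelial ETS factor, had 23.9, 52.4 and 39.0 CPM in WT and 98.4, 60.2 and 128.8 CPM in LSD1 KO libraries, without overlap. It was called neither without the block, at a log2 fold change of 1.32 ± 0.34 (SE, edgeR q = 0.788), nor with it (q = 0.117), but DESeq2 called it (q = 0.0357) together with ZEB1, GRHL2 and OVOL2. KLF4 had 44.2 CPM in WT and 44.3 CPM in LSD1 KO libraries. CDH1 itself was 36.04 ± 8.64 CPM in WT and 28.5 ± 7.85 CPM in LSD1 KO libraries (SD, n = 3 each). Whether these factors act on CDH1 in these cells was not tested.

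**Figure D4:**
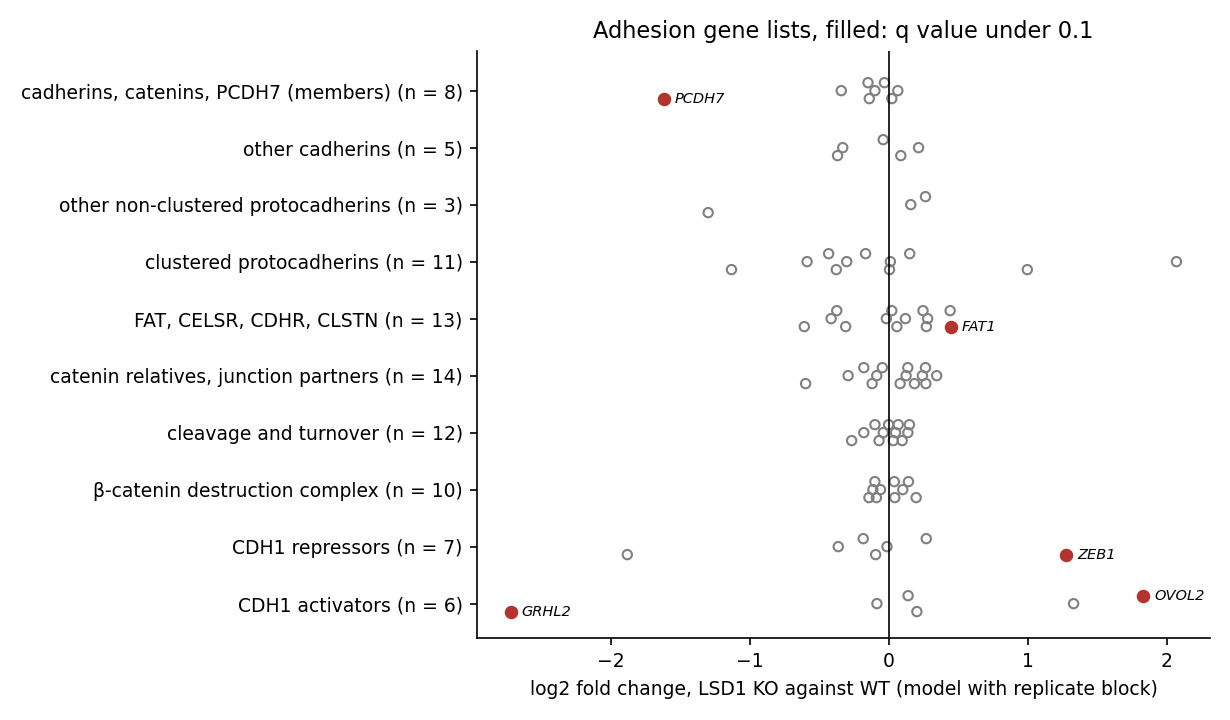
Log2 fold changes of LSD1 KO against WT from the edgeR model with the replicate block, one point per gene and one row per list, with the number of genes compared beside each list and filled symbols for q values under 0.1. The filled genes are PCDH7 at -1.62, GRHL2 at -2.72, FAT1 at 0.44, ZEB1 at 1.28 and OVOL2 at 1.83.

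Over all 158 further genes, 81 were compared. None was called by edgeR without the block, and the count was 4 with it, of which 3 had higher and 1 had lower levels in the knockout, beside 1.05% and 0.549% of all genes. The median log2 fold change of the 81 genes was 0.03. The further lists, too, were chosen with earlier results of these data known. The epithelial adhesion gene EPCAM, one of the colon epithelial markers and named after its values were seen, had 204.0 CPM in WT and 104.3 CPM in LSD1 KO libraries, with a log2 fold change of -0.97 (q = 0.668) without the block and -0.98 (q = 0.0788) with it. Other markers of that list had log2 fold changes without the block of 0.42 for KRT19, -0.19 for KRT8, -0.50 for KRT18 and -0.0054 for CDX2, none of them called in either model. COL1A1, which carried the fibroblast marker sum, had 22.7 CPM in WT and 32.4 CPM in LSD1 KO libraries (q = 0.0628 with the block), and its part in these differences was not tested.

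The genes with a profile most like that of PCDH7 were sought among 14799 genes with a mean of at least 1 CPM, by Pearson's r of log2 CPM over the 6 libraries. They were CMPK2 (r = 0.995), DPYSL2 (r = 0.991), PDLIM5 (r = 0.988), VASH2 (r = 0.985) and ZC4H2 (r = 0.981). Their own log2 fold changes ranged from -1.28 for CMPK2 to -0.18 for DPYSL2, so likeness in profile did not mean likeness in size. For CDH1 they included THSD1 (r = 0.987), SLC7A6OS and ADAMTS17 (both r = 0.984) and ZNF607 (r = 0.979). With 6 libraries of 2 genotypes and so many genes, high values of r are a description of these libraries.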

How the data were processed

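HCT116 cells were profiled by RNA-seq in 3 WT and 3 LSD1 KO samples. Reads were checked with FastQC, trimmed with Trimmomatic 0.39 and quantified with Salmon 1.4.0 against a GENCODE transcriptome of GRCh38, as the paper and the submitters' processing notes give. The authors deposited expected counts of genes, and these were rounded here before the models were fitted. How transcripts were summed to genes is not given in the sources used here. Salmon divides reads shared between genes by estimation, so counts of overlapping gene models depend on it.

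The 10 genes and all further gene lists were chosen with earlier results of these data known. Symbols were matched by Ensembl identifier for 58395 of 60240 genes. Counts were compared across all 17672 genes passing filterByExpr with edgeR 4.0.16 (TMM, quasi-likelihood test, Benjamini-Hochberg adjustment, q value under 0.1) in R 4.3.3, with DESeq2 1.42.0 as an alternative. Steps were tested on simulated data. The replicate number was added as a block in another model. The deviations of same-numbered libraries from their group means had r = 0.639, 0.631 and 0.491 across genes, and those of differently numbered WT and LSD1 KO libraries -0.606 to 0.0756, so the numbers were taken to pair the samples. The pairing comes from the data and not from the labels. The common biological coefficient of variation (edgeR) fell from 0.279 to 0.133 on adding the block.

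Length-scaled levels used the longest transcript of GENCODE v44lift37, and shared stretches were sought in the transcripts of that release. Gene positions and promoters came from RefSeq on GRCh38.p14. Named genes were all 10 members. From each further list the genes called in either model, up to 3 per direction, and the 2 with the highest mean were named, and for PCDH7 and CDH1 the 5 genes with the most similar profile, of which 1 is not reported here. CDH4, CDH8, CDH15, PCDH11X, PCDHGA9, PCDHGB7, PCDHAC1, NECTIN3, AJUBA, LIMA1, CTNNAL1, TWIST1, TMEM200A, EPCAM, COL1A1 and the marker genes listed were named in addition, after their values were seen. Alternatives were other size factors, filters, a stricter threshold, DESeq2, the replicate block, and leaving out each library.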

Additional observations from a re-analysis of the deposited data

How the results depend on the processing

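Of all genes, list members and further genes tested, edgeR without the replicate block called 1, 0 and 0 of 17672, 8 and 81. These counts were the same with RLE factors, with upper-quartile factors, when each library had to hold 10 counts of a gene and at a q value under 0.05. They were 114, 1 and 4 with every gene of nonzero total kept, 95, 1 and 4 with DESeq2, 282, 1 and 4 with the replicate block, and 1055, 1 and 11 with the replicate block and without replicate 2 of both groups. DESeq2 with the replicate block, an alternative chosen after seeing the data, called 593, 1 and 8. Leaving out 1 library at a time gave 1 to 26, 0 to 1 and 0 to 1 calls, the highest in each case without LSD1 KO replicate 2. The member called was PCDH7, and the block changed no other call among the members. The number of genes tested differed between settings, and DESeq2 without the block gave q values for 25656 genes.

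The log2 fold change of PCDH7 ranged from -2.05, with the replicate block and without replicate 2, to -1.41, without LSD1 KO replicate 1. CDH1 (-0.59 to -0.14), CDH3 (-0.26 to -0.06) and CTNNB1 (-0.21 to -0.01) also stayed negative in all 14 alternatives, whereas CTNNA1, CTNND1, PCDH1 and PCDH9 took both signs. Of 113 alternative fold changes, 110 moved by less than 1 SD between replicates. The exceptions were PCDH7 and CTNNA1 (-0.05) in the block without replicate 2, and PCDH9 (-0.77) without LSD1 KO replicate 2. The cause was not tested. Of the 80 alternative levels, 8 moved, all of them with coding length, which moved every gene but CDH2 and CDH17. The coding length was taken from the annotation, and the planned coding length from protein sequences was not run. With 3 libraries a group, and at most 29 counts for PCDH9 and 6 for CDH2 and CDH17, depth limited what could be seen for those genes.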
